A study of Mus musculus with 12 samples.

Results

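CTCF sites inside coding exons were defined as peaks whose summit lay in the protein-coding part of an exon and more than 1 kb from every transcription start site. Across the 6 CTCF peak lists, 3774 of 183882 peaks met this rule. Merging the overlapping regions of all lists gave 1308 coding sites out of 56248 sites, in 1201 genes. The rule used the position of the summit, which in a region with several summits was that of highest fold enrichment.

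CTCF ChIP-seq was performed on brain, heart and lung of C57BL/6 mouse embryos at E18.5 (C57BL/6 N in the study's methods). Embryos were wild type or homozygous for R567W, an amino acid change in CTCF made by CRISPR/Cas9 editing. Each tissue and genotype had 1 ChIP library and 1 input library, which made 12 samples, and the analysis rests on the 6 lists of ChIP peaks. Human HEK293T chromatin, from an established kidney cell line, served as spike-in, and no scale factor from it enters a peak list. With 1 library per group, no difference between genotypes of a tissue has a replicate check, and all intervals given here cover counting error only.

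CTCF binds DNA through a row of zinc fingers, halts loop extrusion by cohesin and marks many boundaries of chromatin domains. Its central fingers read a core motif, and the last fingers, where R567W lies, contact an upstream motif that is present at a fraction of sites. Most CTCF sites are intergenic or intronic. A site in a coding exon is a special case because the same bases also encode protein, and CTCF bound within a gene body has been linked to the inclusion of alternative exons.

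The sequences of the sites on which the following values turn are shown first, each as the core motif with the 30 bases 5′ of it, read 5′ to 3′ on the strand of the core motif in GRCm38. The core motif is in capitals at the 3′ end. A second run of capitals further 5′ marks an upstream motif, TGCAGTNCC with at most 2 mismatches. Gm16253 (chr3:96580384-96580432, minus strand), 1700020L24Rik (chr11:83440468-83440516, plus strand) and Def6 (chr17:28226239-28226287, plus strand) are the coding sites with a member peak in all 6 lists and the highest mean rank of fold enrichment. F12 (chr13:55418209-55418257, plus strand), Zbbx (chr3:75136441-75136489, minus strand), Rinl (chr7:28796843-28796891, plus strand) and Lama1 (chr17:67776962-67777010, minus strand) are strong wild-type peaks without a mutant overlap in 1 tissue or more. D7Ertd443e (chr7:134349030-134349078, minus strand), Ptpn20 (chr14:33632918-33632966, plus strand) and Glis3 (chr19:28531032-28531080, minus strand) had a peak in the 3 wild-type lists and in no mutant list. Spg11 (chr2:122065419-122065467, plus strand) is the strongest coding peak of the mutant brain list without a wild-type overlap in that tissue.
Gm16253: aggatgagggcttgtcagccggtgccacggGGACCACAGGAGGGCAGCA
1700020L24Rik: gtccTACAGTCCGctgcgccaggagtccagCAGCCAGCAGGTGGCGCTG
Def6: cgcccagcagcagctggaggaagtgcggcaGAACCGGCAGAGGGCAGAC
F12: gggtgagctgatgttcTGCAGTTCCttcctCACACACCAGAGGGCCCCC
Zbbx: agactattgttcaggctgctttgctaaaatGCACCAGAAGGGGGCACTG
Rinl: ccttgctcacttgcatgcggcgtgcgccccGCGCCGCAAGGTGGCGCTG
Lama1: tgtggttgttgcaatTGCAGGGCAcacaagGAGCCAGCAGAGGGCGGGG
D7Ertd443e: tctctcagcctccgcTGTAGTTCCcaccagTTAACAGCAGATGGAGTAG
Ptpn20: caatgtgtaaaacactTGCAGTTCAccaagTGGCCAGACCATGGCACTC
Glis3: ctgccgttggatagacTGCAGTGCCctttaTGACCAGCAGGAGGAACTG
Spg11: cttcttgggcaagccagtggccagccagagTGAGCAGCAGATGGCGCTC

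Coding exons held about 2% of the peaks in 5 lists and less in the mutant heart list. In brain, 742 of 36034 wild-type peaks (2.06%, 95% Wilson interval 1.92 to 2.21%) and 809 of 38390 mutant peaks (2.11%, 1.97 to 2.26%) were members. In heart, 428 of 21059 wild-type peaks (2.03%, 1.85 to 2.23%) and 187 of 11515 mutant peaks (1.62%, 1.41 to 1.87%) were members. In lung, 933 of 44386 wild-type peaks (2.10%, 1.97 to 2.24%) and 675 of 32498 mutant peaks (2.08%, 1.93 to 2.24%) were members. The coding bases that could hold a member made up 1.12% of the genome. Members therefore stood at 24.9 peaks per Mb in wild-type brain, against 14.1 per Mb in introns and 57.4 per Mb within 1 kb of a start site. Exons outside the coding part stood at 22.1 per Mb there, so a density above that of introns was not particular to coding sequence. In heart, members and these exons stood at 14.4 and 14.0 per Mb in the wild type and at 6.28 and 7.78 in the mutant. In the other lists, members had the higher density.

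Member number followed the genotype differently in each tissue. The mutant number divided by the wild-type number was 1.09 for brain members, 0.437 for heart members and 0.723 for lung members. The same ratio over intronic peaks was 1.03, 0.508 and 0.712. On the log2 scale, members minus introns came to 0.08 for brain, -0.22 for heart and 0.02 for lung, with a mean of -0.04 ± 0.16 (SD, n = 3 tissues). A sign-flip permutation over the tissues, exact and two-sided, gave p = 1, where 3 tissues cannot go below 0.25.

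**Figure D1:**
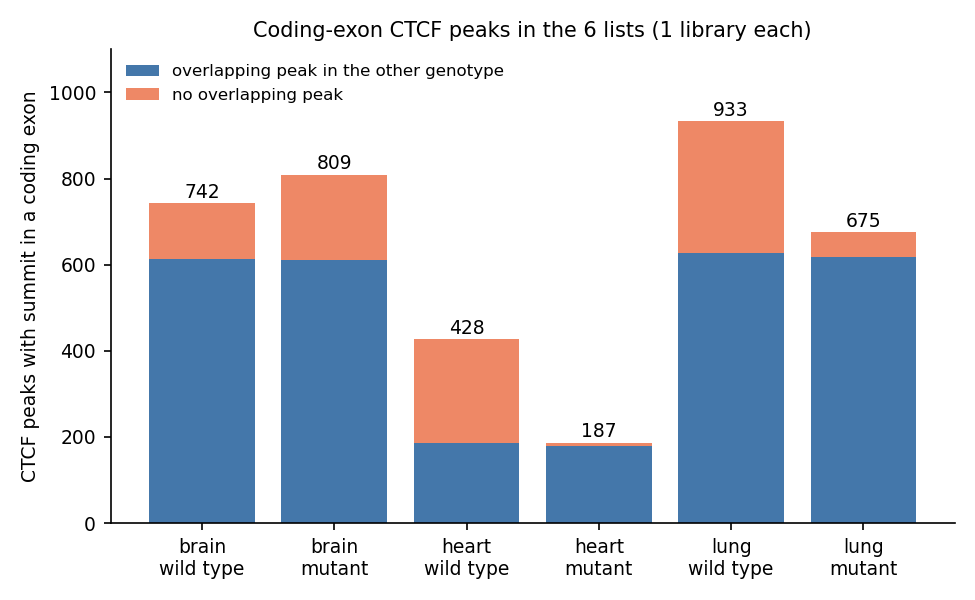
Number of CTCF peaks with a summit in a coding exon (y axis) in each of the 6 lists, 1 library each, split into peaks with (blue) and without (orange) an overlapping peak of the other genotype in the same tissue. The bars range from 187 in mutant heart to 933 in wild-type lung.

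Most brain members and fewer than 1 in 2 heart members of the wild type overlapped a mutant peak. In brain, 614 of 742 wild-type members had a mutant overlap (82.7%, 79.9 to 85.3%), where all wild-type brain peaks gave 81.5%. In heart, 186 of 428 had one (43.5%, 38.8 to 48.2%), against 50.6% of all peaks. In lung, 626 of 933 had one (67.1%, 64% to 70%), against 67% of all peaks. Among mutant members, those without a wild-type overlap numbered 198 of 809 in brain, 7 of 187 in heart and 57 of 675 in lung. A wild-type overlap was present at 75.5% of mutant brain members, 96.3% of mutant heart members and 91.6% of mutant lung members, and over all mutant peaks at 75.5%, 92.9% and 90.9%. The shares of members thus lay near those of all peaks of the same list, and furthest from them in wild-type heart. Members without a mutant overlap were lower, with a median wild-type pileup of 18 against 39 reads in brain, 22 against 36 in heart and 25 against 79 in lung. The pileup is the number of extended reads over the summit, recovered from the deposited values.

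Compared with intronic peaks, the retained share of wild-type members was higher by 3.66 points in brain (95% Newcombe interval 0.71 to 6.30) and by 1.53 points in lung (-1.62 to 4.55). In heart, it differed by -3.34 points (-8.08 to 1.51). The mean over tissues was 0.62 ± 3.59 points (SD, n = 3; exact two-sided sign-flip permutation test, p = 0.75), and its sign changed under several settings, such as a reciprocal overlap of 50%, which gave -1.46 points. Retention was higher at stronger wild-type peaks in both classes. In brain, it went from 58.0% (49.6 to 65.9%) of members in the lowest quintile of summit pileup to 97.7% (93.5 to 99.2%) in the highest. Intronic peaks in the same brain quintiles were retained at 45.4% (43.5 to 47.3%) and 99.7% (99.4 to 99.8%). In lung, the lowest quintile gave 26.3% of members (20.5 to 33.1%) and 17.3% of intronic peaks (16.1 to 18.6%). In heart, the second quintile gave 16.9% of members (10.1 to 26.8%) and 27.4% of intronic peaks (25.3 to 29.6%). The lowest heart quintile gave 11.8% of members (6.73 to 19.9%) and 9.32% of intronic peaks (7.99 to 10.8%). The intervals of the lowest quintile were thus apart in brain and lung, with members higher, and overlapped in heart. In the second brain quintile they were also apart, at 74.5% of members (67.7 to 80.2%) and 66.0% of intronic peaks (64.3 to 67.6%). In the highest brain quintile they were apart the other way, with members lower. In the remaining quintiles they overlapped.

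**Figure D2:**
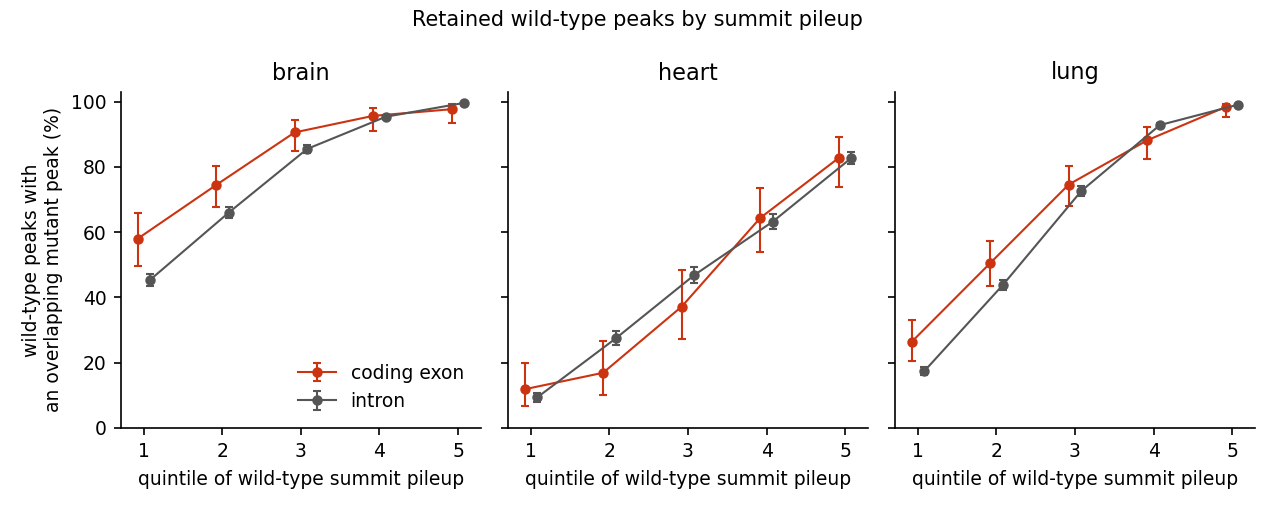
Share of wild-type peaks with an overlapping mutant peak (y axis, percent, with 95% Wilson intervals) by quintile of wild-type summit pileup (x axis) in each tissue, for coding exons (red) and introns (grey). In brain the coding share runs from 58.0% to 97.7%, and in heart both classes stay below 90% in every quintile.

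Among peaks present in both genotypes, members and introns had similar median ratios of height, with no test of the difference. Each pileup was divided by the lowest background found in its own list. Mutant over wild type then had a median of -0.06 (log2) at 614 shared brain members, -0.33 at 186 heart members and -0.43 at 626 lung members. At introns, the medians were -0.12, -0.29 and -0.43. The ratio was below 0 at 52.9% of shared members in brain, 79.6% in heart and 78.0% in lung. This scale sets a list against its own background and carries no correction from the spike-in. The direction depends on the background used. Over local background, the median fold enrichment of all members, shared or not, was 10.4 in wild-type and 15.3 in mutant lung. It was 9.27 and 9.92 in heart, also higher in the mutant, and 10.9 and 8.76 in brain.

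Coding sites ranged from sites found everywhere to sites found once. Of the 1308 sites, 222 (17.0%) had a peak in all 6 lists and 305 (23.3%) in a single list, where all 56248 sites gave 18.6% and 28.8%. These counts take any peak of a merged site, and counted by summits in coding sequence, 149 sites had a member in all 6 lists and 434 in a single list. A site with peaks in more lists has more summits by which it can count as coding, so the rule itself favours broad sites. Next to the 222, the commonest patterns were a peak in all lists but mutant heart (206 sites, 15.7%), in both brain and both lung lists but not in heart (142 sites, 10.9%), in wild-type lung alone (131 sites, 10.0%) and in mutant brain alone (101 sites, 7.72%). Over all sites, these patterns made up 12.8%, 9.34%, 12.6% and 9.20%. A wild-type peak was present at 1166 coding sites. Of these, 475 had one in the 3 tissues (40.7%, 38.0 to 43.6%), against 38.1% (37.4 to 38.8%) of 20406 wild-type intronic sites. The difference was 2.65 points, and -0.52 points against all other sites away from start sites. It is a description, since the rule bears on it. Wild-type peaks in 1 tissue only numbered 280 for lung (24.0%), 113 for brain (9.69%) and 4 for heart (0.343%), which had the shortest wild-type list. Over all sites with a wild-type peak, the shares were 24.9%, 9.64% and 0.675%.

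Common coding sites were missing mostly from the mutant heart list, as were common sites over the whole genome. Of the 475 coding sites that the 3 wild-type lists shared, 28 had no mutant peak in brain (5.89%), 252 had none in heart (53.1%) and 37 had none in lung (7.79%). Over all common sites, these shares were 6.43%, 46.3% and 6.63%, and over intronic ones 6.90%, 50.1% and 6.90%. At 206 of the coding sites (43.4%), heart was the only tissue without a mutant peak, against 40.1% of intronic and 36.7% of all common sites. At 17 sites (3.58%), no mutant list had a peak, and the share was 3.31% at intronic sites and 3.15% over all sites. The mutant heart list was also the shortest of the 6, so fewer sites and a lower sensitivity of that library cannot be told apart.

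The core motif was less common at sites called by few lists than at sites called by all. The core motif, a matrix of 19 positions learned from wild-type brain peaks outside the members, was found within 100 bp of the summit at 81.3% of coding sites with a peak in 1 list. It was found at 98.6% of those with a peak in all 6 lists. At the stricter p of 1e-05, the shares were 46.9% and 90.5%.

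By list, 92.0% of wild-type and 92.5% of mutant brain members held the core motif, 94.9% and 98.4% of heart members, and 92.2% and 95% of lung members. Flanking windows centred 1100 bp away held it at 17.1 to 18.4%, and windows placed on every 500th eligible coding base at 17.3%. The share at members was below that at intronic peaks in 6 of 6 lists, by a mean of 1.62 points (coding minus intron -1.62 ± 0.84, SD, n = 6 lists; exact two-sided sign-flip permutation test, p = 0.0312, the smallest that 6 lists allow). The lists of a tissue share most sites, so they are not independent, and with both averaged the exact permutation test over 3 tissues gave p = 0.25, the smallest it allows. At the stricter motif threshold the difference was -6.21 points. In the wild-type lists, other exons were nearer to members, with 91.9% in brain, 95% in heart and 92.1% in lung. Other exons of the mutant lists stood at 94.4%, 98.64% and 95.8%, nearer to introns (94.7%, 98.57% and 96.4%) than to members. At the stricter threshold, other exons were nearer to introns in the wild-type lists too. Brain gave 80.4% for other exons, 82.4% for introns and 74.0% for members. Heart gave 86.8%, 87.3% and 83.4%, and lung 80.4%, 80.7% and 72.6%. Peaks within 1 kb of a start site held the core motif less often, at 87.5%, 89.7% and 81.6% in the wild-type lists. Members were also richer in G and C than introns: the mean over 201 bp was 58.9% ± 9.0 (SD over 742 peaks) in wild-type brain, against 47.8% ± 7.2 at intronic peaks and 49.9% ± 8.5 over coding windows.

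Peak height at members was compared with that at introns. The median fold enrichment, the authors' ratio of summit pileup to local background, was 10.9 against 12.6 in wild-type brain and 8.76 against 9.93 in mutant brain. It was 9.27 against 9.51 in wild-type heart and 9.92 against 9.58 in mutant heart. In lung, it was 10.4 against 11.7 in the wild type and 15.3 against 17.6 in the mutant. The local background of wild-type lung had a median of 3.63 reads over all peaks, against a lowest value of 1.53. Only 10.5% of its peaks stood at or near the lowest background, against 39.7 to 47.3% in the other lists. At the last exon of Cacna1a, 434 wild-type lung reads gave a fold enrichment of 9.99, and 492 mutant reads gave 146. Ranks by fold enrichment in wild-type lung thus need not follow the reads. The log2 difference in median fold enrichment, members minus introns, averaged -0.13 ± 0.11 (SD, n = 6 lists). It was below 0 in 5 of 6 lists (exact two-sided sign-flip permutation test, p = 0.0938), so it did not pass the test.

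Strong matches to the core motif were more frequent in coding sequence than in introns but were occupied less often. At p of 1e-06, coding sequence away from start sites held 902 instances, or 30.3 per Mb, and introns held 18914, or 17.7 per Mb. An instance counted as occupied when a summit lay within 50 bp. In brain, 35.1% (32.1 to 38.3%) of coding instances were occupied in the wild type and 37.9% (34.8 to 41.1%) in the mutant, against 43.8% and 44.8% in introns. In heart, the coding shares were 24.3% and 13.4%, and the intronic shares were 28.3% and 17.2%. In lung, they were 41.7% and 35.7% in coding sequence and 51.0% and 41.9% in introns. Coding minus intron averaged -6.47 ± 2.30 points (SD, n = 6 lists), negative in 6 of 6 lists (exact two-sided sign-flip permutation test, p = 0.0312). The lists score the same instances and are not independent, and with the lists of a tissue averaged the exact permutation test over 3 tissues gave p = 0.25, the smallest it allows. After standardisation over quintiles of motif score, chosen after seeing the data, the difference was -4.29 points, and with instances called at p of 1e-05 it was -1.88 points. In wild-type brain, 53.6% of 1095 instances in exons outside the coding part and 39.9% of 18649 intergenic instances were occupied. In every list, the coding share lay below the intergenic one and nearer to it than to the intronic one. The intergenic and intronic shares of mutant heart were both 17.2%. The coding interval included the intergenic value in mutant brain (38.6%), mutant lung (36.7%) and wild-type heart (27.1%), and not in the other lists.

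Occupancy also differed by the CpG content of the instance. A CpG lay in the core motif of 64% of coding instances and 38.5% of intronic ones. In wild-type brain, coding instances with a CpG were occupied at 39.3% and those without at 27.7%. Intronic instances gave 48.4% and 41.0%, so the coding share was the lower one in each of these classes. Over all 6 lists, 418 of 902 coding instances (46.3%) were occupied at least once, against 57.6% in introns.

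**Figure D3:**
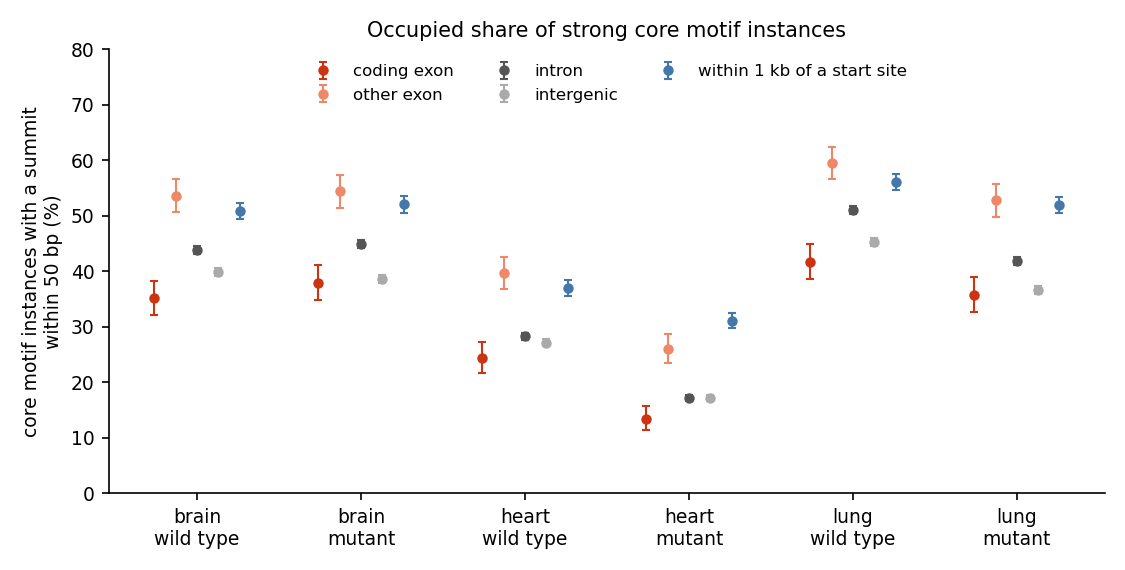
Share of strong core motif instances with a CTCF summit within 50 bp (y axis, percent, with 95% Wilson intervals) in each list (x axis, 1 library each), for 5 kinds of sequence. Coding exons (red) lie below introns (dark grey) in all 6 lists, from 13.4% in mutant heart to 41.7% in wild-type lung.

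The core motif lay on the coding strand at 540 of 1177 coding sites that held it (45.9%, 43.1 to 48.7%) and on the opposite strand at 637. Coding instances without a peak were skewed in the same direction, with 43.2% of 484 on the coding strand at p of 1e-06. At p of 1e-05, the share was 47.4% of 4253 (45.9 to 48.9%) without a peak and 44.8% of 834 with one. The size of the skew without a peak thus varied with the threshold. The whole motif fitted inside the coding interval at 938 sites (79.7%) and ran over its edge at 239. Where it fitted on the coding strand, its first base fell at the third codon position at 55.0% of 418 sites, at the first at 31.6% and at the second at 13.4%. Unoccupied coding instances at p of 1e-05 gave 50.3%, 34.0% and 15.7% of 1888. On the opposite strand, counted in the direction of the gene, the shares were 44.0% in frame 1, 29.2% in frame 2 and 26.7% in frame 3 of 520 sites. Unoccupied instances there gave 42.8%, 34.4% and 22.8% of 2114. The order of the frames was thus the same at bound and unoccupied matches on either strand, and the differences between them were not tested.

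The last coding exon held a larger share of the coding sites than of coding bases. Of the sites, 22.6% (20.4 to 25%) lay in the last coding exon, against 16.5% of eligible coding bases. Internal exons held 64.5% (61.9 to 67.1%) of sites and 74.6% of bases. Among the 222 sites with a peak in all 6 lists, the last exon held 32.4% (26.6 to 38.8%). Genes with a single coding exon held 6.5% of sites and 4.53% of bases. The median coding interval was 203.5 bp for sites and 180 bp for bases. Intervals over 1000 bp held 15.4% (13.5 to 17.4%) of sites and 15.6% of bases. Exons that another transcript of the gene skips held 64 sites (4.89%, 3.85 to 6.20%), against 4.12% of bases.

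The upstream motif was less frequent at members than at introns in brain and lung, and in heart the interval of the difference spanned 0. With the core motif present, 21.7% of wild-type brain members carried it, against 30.9% of intronic peaks. In heart the shares were 26.6% and 29.0%, and in lung 21.6% and 30.4%. A low share was not particular to members. Wild-type peaks within 1 kb of a start site gave 20.5% in brain, 22.2% in heart and 19.9% in lung. Other exons gave 28.6%, 29.7% and 27.5%. Coding minus intron was -9.20 points for wild-type brain (95% Newcombe interval -12.2 to -5.87), -2.35 for heart (-6.54 to 2.25) and -8.75 for lung (-11.5 to -5.79). The mutant lists gave -7.44 (-10.2 to -4.37), -0.48 (-6.17 to 6.26) and -6.17 points (-9.25 to -2.77) in the same order. The mirrored window downstream of the core, which gives the background of this search, held a match at 14.0 to 16.8% of wild-type members and 13.2 to 13.6% of intronic peaks. The excess over the mirrored window was thus smaller at members than at introns in each tissue.

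Wild-type members with the upstream motif were retained in the mutant at 83.1% in brain (123 of 148), 40.7% in heart (44 of 108) and 69.4% in lung (129 of 186). Members without it were retained at 84.9% (454 of 535), 47.0% (140 of 298) and 70.6% (476 of 674). The differences were -1.75 points (95% Newcombe interval -9.15 to 4.38), -6.24 points (-16.7 to 4.72) and -1.27 points (-8.98 to 5.86). Their mean was -3.09 ± 2.74 points (SD, n = 3 tissues; exact two-sided sign-flip permutation test, p = 0.25, the smallest that 3 tissues allow). The mean varied with the setting: it was -10.4 points with at most 1 mismatch in the motif, -5.89 standardised over deciles of wild-type pileup, -2.01 with a mutant summit within 150 bp and -0.79 with the core motif at p of 1e-05. Under that last setting, brain gave 0.41 and lung 2.36 points, and brain was also above 0 with the mutant summit within 150 bp (0.71) and with a reciprocal overlap of 50% (2.68), as was lung at more than 2 kb from every start site (0.17). For intronic peaks, the brain difference was -6.68 points (-8.16 to -5.23), the heart difference -10.8 (-13.1 to -8.39) and the lung difference -8.30 (-9.86 to -6.76). With the mirrored window in place of the upstream one, the differences at members were -2.25 points in brain, 8.51 in heart and -6.39 in lung, larger in size than those of the upstream window in all 3 tissues.

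Peak height at shared members differed in the same direction. In brain, the median log2 pileup ratio (mutant over wild type) stood at -0.29 where the upstream motif was present and at 0.02 where it was not. Heart gave -0.39 and -0.31, and lung -0.62 and -0.37. The difference of medians averaged -0.21 ± 0.12 (SD, n = 3 tissues; exact two-sided sign-flip permutation test, p = 0.25) and was negative in 3 of 3 tissues. The mirrored window gave differences of -0.22, -0.11 and -0.09 at members, larger in heart than those of the upstream window, and -0.03, 0.00 and -0.07 at introns.

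**Figure D4:**
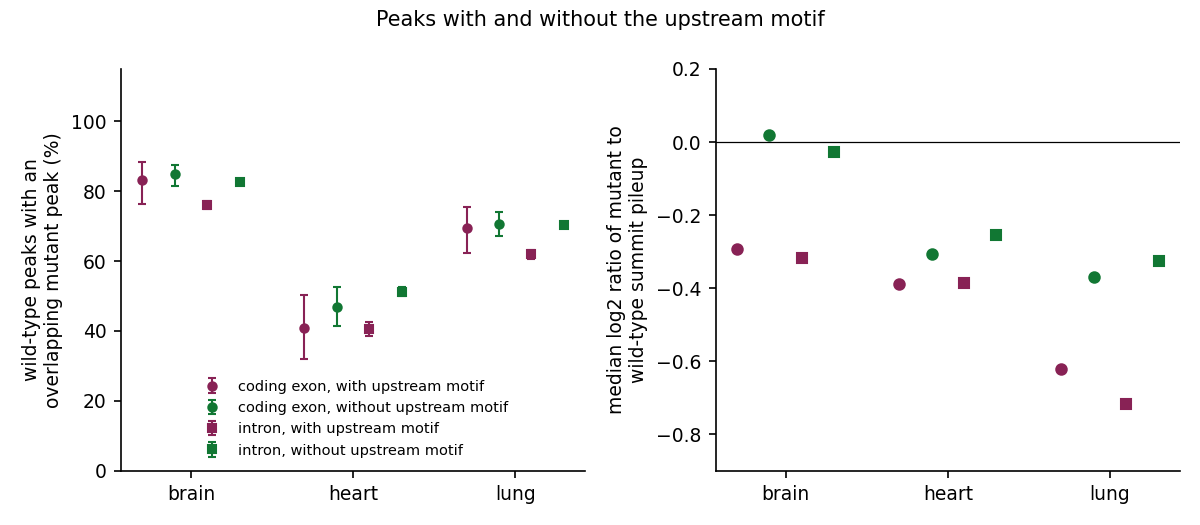
Left, share of wild-type peaks with an overlapping mutant peak (y axis, percent, with 95% Wilson intervals). Right, median log2 of the mutant summit pileup divided by the wild-type one, each over the lowest background of its list. Circles are coding exons and squares introns, with (purple) and without (green) the upstream motif. In every tissue and both classes the purple symbol lies below its green partner, and the coding intervals overlap.

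Among the 475 coding sites common to the 3 wild-type lists, the upstream motif was carried by 53 of 219 core motif sites with a peak in all mutant lists (24.2%, 19 to 30.3%). It was carried by 50 of 195 sites absent from 1 mutant list (25.6%, 20 to 32.2%), by 11 of 27 absent from 2 (40.7%, 24.5 to 59.3%) and by 9 of 13 absent from all 3 (69.2%, 42.4 to 87.3%). Neither intronic nor all common sites were counted in this way, nor was the mirrored window. The rise therefore cannot be called particular to coding sites. The groups of coding sites also differed in height. Their median wild-type lung pileup was 170 reads with peaks in all mutant lists and 80 reads with peaks in none, and their median core score was 19.3 and 10.1 bits.

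Gm16253, a predicted gene, had the strongest coding site by mean rank, in its last coding exon. Its summit pileup was 293 reads in wild-type and 516 in mutant brain. Heart had 101 and 92 reads there, and lung had 472 and 499. The site in exon 2 of 1700020L24Rik gave 184 reads in wild-type and 397 in mutant brain, 71 reads in either heart list, and 347 and 333 reads in the lung lists. Exon 9 of Def6, which encodes a guanine nucleotide exchange factor of lymphocytes, gave 180 and 183 reads in the brain lists, 71 and 59 in those of heart, and 342 and 249 in those of lung. Mutant peaks of the first pair exceeded wild-type peaks in brain by more than counting error (472 to 563 against 260 to 329 reads at Gm16253), while their heart and lung intervals overlapped between genotypes. The lowest background of a list, which moves with its depth, was 1.70 reads for wild-type and 2.02 for mutant brain, 1.74 and 1.92 for heart, 1.53 and 1.42 for lung. Over that background, Gm16253 stood at 172 in wild-type and 255 in mutant brain.

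F12 encodes coagulation factor XII and held 3 coding sites. In its last coding exon, 85 reads in wild-type brain and 41 in wild-type heart faced no mutant peak, and 169 reads in wild-type lung faced 21 in the mutant. An upstream motif without a mismatch lay 5 bases from the core there. In coding exon 8, which another transcript skips, the wild-type lists had 52 (brain), 21 (heart) and 132 (lung) reads, and no mutant list had a peak. Zbbx, with a site in coding exon 2, had 93 reads in wild-type brain and 76 in wild-type lung and no peak in the other 4 lists. Lama1 encodes a laminin alpha chain of basement membranes. Its exon 29 had 37 reads in wild-type brain and 83 in wild-type lung, and no peak elsewhere. Zbbx carried no upstream motif, and Lama1 carried one with 2 mismatches.

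In heart, the strongest members without a mutant overlap were in Rinl, a Ras and Rab interactor-like gene, and Chpf, which encodes chondroitin polymerizing factor. Rinl had 57 reads in wild-type heart, fell from 269 (238 to 303) to 91 (73.3 to 112) in lung and from 100 (81.4 to 122) to 46 (33.7 to 61.4) in brain. Chpf had 61 reads in wild-type heart, 183 and 90 in wild-type and mutant lung, and 127 and 136 in brain. Neither held an upstream motif.

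Of 15 sites with a member peak in the 3 wild-type lists and no mutant peak, 11 held the core motif and 7 of these the upstream motif. The same count was not made outside coding sites. The strongest by mean rank was in D7Ertd443e, with 55 reads in brain, 38 in heart and 149 in lung. Dnah12, which encodes a heavy chain of axonemal dynein, had 33, 32 and 50 reads and no core motif call. Ptpn20, a protein tyrosine phosphatase gene, had 60, 21 and 68 reads and an upstream motif with 1 mismatch. Glis3, which encodes a zinc finger transcription factor, had 18, 27 and 75 reads and an upstream motif with no mismatch. Besides coding exon 8 of F12, the others were in Pxylp1, Klhl22, Sorbs2, Ercc4, Sh3pxd2a, Il13, Grin2c, Sez6, Phf24 and Lama4. Grin2c encodes a subunit of the NMDA receptor, Ercc4 a nuclease of DNA repair and Il13 a cytokine of type 2 immunity.

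**Figure D5:**
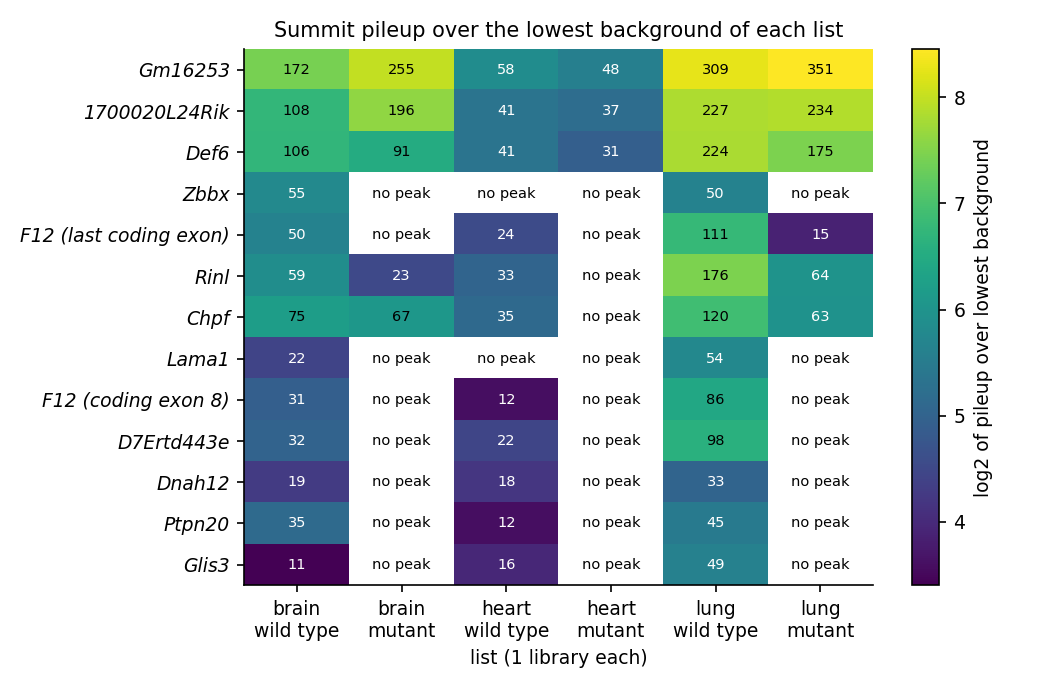
Summit pileup over the lowest background of each list (colour, log2, with the linear value printed) at 13 named coding sites (rows) in the 6 lists (columns, 1 library each). The top 3 rows have a peak in every list, and the bottom 5 rows have wild-type peaks in every tissue and no mutant peak.

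The mutant members of highest fold enrichment without a wild-type overlap in the same tissue were Spg11 in brain (47 reads), Cpsf2 in heart (25 reads) and Ap2a1 in lung (42 reads). Spg11 encodes spatacsin, Cpsf2 a subunit of the cleavage and polyadenylation complex and Ap2a1 a subunit of the AP-2 clathrin adaptor. All 3 sites had a wild-type peak in another tissue: Spg11 had 45 reads in wild-type lung, Cpsf2 had 54 in brain and 63 in lung, and Ap2a1 had 22 in brain. Of 211 coding sites with a peak in mutant but not wild-type brain, 100 had a wild-type peak in another tissue. The numbers were 8 of 8 in heart and 17 of 58 in lung. As shares, these were 47.4%, 100% and 29.3%, against 37.8% of 9346, 95.3% of 803 and 24.1% of 2863 such sites over the whole genome.

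Among sites with a wild-type peak in 1 tissue, those of highest fold enrichment in brain were Tspan9, a tetraspanin gene, with 47 wild-type and 39 mutant reads, and Dpysl3, which encodes a collapsin response mediator protein of growing axons, with 35 and 24. In lung, Neu3, a membrane sialidase gene, had 52 and 26 reads. Msh5, a gene of meiotic recombination, had 55 and 60 in lung and 40 in mutant brain. In heart, Sorbs2, which encodes an adaptor of the Z-disc, had 17 reads and no core motif call at a site other than its site named above. Svil, which encodes supervillin, had 16 reads in heart, and neither had a mutant peak.

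Most genes had a single coding site. Of the 1201 genes, 1101 had 1 site, 95 had 2, 3 had 3 (Cul9, F12 and Sptbn4) and 2 had 4 (Syne1 and Tchh). Syne1 encodes nesprin-1, a giant protein that links the nucleus to the cytoskeleton. Its site in coding exon 42 went from 67 reads in wild-type brain to 34 in the mutant and from 175 to 51 in lung, where the wild-type summit lay outside the coding interval, with 30 reads in wild-type heart and no mutant heart peak, and the other 3 were lung sites of 16 to 34 reads. The 4 sites of Tchh, which encodes trichohyalin of the hair follicle, lay in 1 long last exon. The strongest of them had 51 and 55 reads in brain and 28 and 44 in lung.

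Genes of the synapse and of neuronal excitability held a coding site in 11 of 48 cases (22.9%, 13.3 to 36.5%), against 6.12% of 19633 genes with eligible coding sequence. They are long: their share of coding bases would give 8.52 of the 1308 sites, and they held 17. The site of most reads was in the last exon of Cacna1a, which encodes the pore of P/Q-type calcium channels, with 205 reads in wild-type and 413 in mutant brain. Heart gave 48 and 69 reads there, and lung 434 and 492. Across the 17 sites, a peak was present at 8 in wild-type and 10 in mutant brain, at 13 and 10 in lung, and at 5 and 1 in heart. Of all 1308 coding sites, 65.8% and 71.6% had a peak in the brain lists, 80% and 60% in those of lung, and 38.5% and 17.7% in those of heart. Large cadherins outside the clusters held a site in 7 of 22 genes, with 10 sites against 6.06 by coding bases. Celsr1 and Celsr3, with 2 sites each, belong to both lists, so the counts overlap. Cacna1c, also with 2 sites, is in both the synapse list and the cardiac list. Pcdh17 held 2 of the 10 cadherin sites, and the stronger had 55 reads in wild-type brain and 90 in the mutant.

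The other lists held few sites. Cardiac sarcomere and conduction genes held 7 sites in 5 of 35 genes, against 9.73 by coding bases, and 1 of the 7, in Cacna1c, had a wild-type heart peak, as had 38.5% of all coding sites. Ttn, the gene of titin, held 2 of these sites, neither with a heart peak. Lung development genes held 4 sites in 4 of 35 genes (Foxa1, Nkx2-1, Sox17 and Sox9) against 3.16, and 3 had a wild-type lung peak, as had 80% of all coding sites. CTCF, cohesin and cofactor genes held 2 sites in 2 of 27 genes (Maz and Sgo1) against 3.45. Ptprc, a gene at which CTCF at an alternative exon has been studied, had a brain site in coding exon 4, which another transcript skips, with 13 reads in the mutant, and the overlapping wild-type peak of 8 reads had its summit outside the coding part.

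Gene families named by prefix lay above, below or near the number given by their coding bases. Semaphorin genes held 8 sites in 8 of 20 genes against 2.2 by coding bases, keratin genes 9 in 9 of 51 against 2.17, and Hox genes 4 in 4 of 36 against 0.593. Vomeronasal receptor genes held 0 sites in 171 genes against 13.5, olfactory receptor genes 1 in 277 against 4.85, and zinc finger protein (Zfp) genes 18 in 394 against 31.5. Solute carriers held 24 against 24.5, collagens 6 against 8.63, Adam and Adamts genes 9 against 6.68, voltage-gated calcium channel alpha 1 genes 5 against 2.79 and sodium channel genes 3 against 2.53. Myosin heavy chains held 3 against 3.34, laminins 2 against 2.97, Notch genes 2 against 1.12 and axonemal dynein heavy chains 4 against 8.26. Mucin, plexin and histone genes held 0 against 3.54, 2.09 and 0.0659, and the clustered protocadherins held 1 against 3.47. The families were not tested.

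The limit of 1 kb set the number of members. In wild-type brain, 495 of 1237 summits in coding sequence lay within 1 kb of a start site and were left out, and 349 of these lay within 500 bp. In mutant brain, 811 of 1620 were left out. The member nearest the limit was in coding exon 15 of Adgre5, the gene of the adhesion receptor CD97, at 1001 bp from a start site, with 71 reads in wild-type brain and 121 in the mutant. The nearest summits below the limit, at 999 bp, were in Erh with 33 reads and BC024139 with 17, both in wild-type brain.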

How the data were processed

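Peaks were called separately on each of the 6 ChIP libraries. Per the study's methods, adapters were removed by the authors (Trim Galore), Bowtie2 placed the reads on mouse (mm10) and human (hg38) sequence together, uniquely placed mouse reads were kept, and MACS2 called the peaks. The input used as control of each list was not given in the sources used here. The deposited score, a whole number made from the q-value, plays no part here. Fold enrichment as deposited is a ratio of summit pileup to local background. The deposited p-values and q-values are −log10 values.

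Regions with several summit lines were counted once, by the line of highest fold enrichment. Genes came from GENCODE basic M21 on GRCm38. Peaks were assigned in the order start site (within 1 kb), coding, other exon, intron, intergenic. Merged sites joined overlapping regions of the 6 lists, and a site counted as coding when it held at least 1 member. A site stood for its member of highest rank. Retention needed an overlap of 1 bp. Summit pileup was solved from fold enrichment and p-value, and a whole number solved 100% of lines within a relative tolerance of 1e-04. The core motif matrix was learned from the 2000 strongest non-member wild-type brain peaks, of which 1961 gave a site, and called at p of 1e-04. The upstream motif was TGCAGTNCC on the strand of the core with at most 2 mismatches in the 30 bases 5′ of it. The number of genes in a list counts those with coding bases over 1 kb from a start site. Depth of the libraries is known only through the pileup. Solving the pileup, the overlaps, the motif scan and the standardisation were tested on simulated data.

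Intervals are 95% Wilson (shares), Newcombe (differences) or exact Poisson (reads), and cover counting error only. Tests were exact two-sided sign-flip permutations over 3 tissues or 6 lists, which may reflect technical spread. Named sites were the 3 sites of highest mean rank with a member in all 6 lists; by fold enrichment in each tissue, the 2 wild-type members without a mutant overlap, the mutant member without a wild-type overlap and the 2 members of that tissue's wild type only; the 5 of highest rank among sites with a wild-type member in every tissue and no mutant peak; genes of 4 or more sites; examples from the gene lists; and the summits nearest the limit. The other sites without a mutant peak and the genes of 3 sites were named after their values were seen. The members, lists and rules were chosen with earlier results of these data known. Alternatives are in the closing section. Sequences were read from GRCm38. Python 3.11.15, numpy 2.4.6, pandas 2.3.3 and scipy 1.17.1 were used.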

Additional observations from a re-analysis of the deposited data

Results flagged for a closer look

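The mutant heart list stood apart from the other 5 lists in its coding share, 1.62%, with a gap to the next list of 0.845 of the whole range. The 6 lists are of different groups, and chance flags about 1 in 20 such sets.

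Member number, as mutant over wild type on the log2 scale, differed in sign between tissues. Brain gave 0.125, heart -1.19 and lung -0.467. With the same ratio of introns subtracted, brain gave 0.0821, heart -0.216 and lung 0.0235. The retained share of coding minus intronic peaks also changed sign, being 3.66 points for brain, -3.34 for heart and 1.53 for lung. These differences between tissues were not tested, since each group had 1 library.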

How the results depend on the processing

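Over 92 combinations of result and setting, 78 counted as unchanged. For the coding share and for leaving out a tissue, this meant the same direction and a move smaller than the SD. For the rest, it meant the same direction and the same side of the threshold of the test or interval. A test over 3 tissues cannot go below 0.25, so results that rest on it could change in direction only. The lower core motif share of members (-6.21 to -1.25 points) and the lower occupancy of coding instances (-7.77 to -1.88 points) kept their direction throughout. Their exact sign-flip permutation p was 0.0312 wherever 6 lists entered as units, and 0.25 with the lists of a tissue averaged (-1.62 and -6.47 points, n = 3), a setting chosen after seeing the data in which 3 tissues cannot reach a lower p. Fold enrichment stayed lower (-0.21 to -0.09, log2), and so did retention (-10.4 to -0.79 points) and pileup ratio (-0.37 to -0.17, log2) with the upstream motif. Standardised over deciles of pileup, a setting chosen after seeing the data, the motif share difference was -1.31 points. The orientation share stayed at 45.0 to 46.1%.

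The retained share of members minus introns changed sign at a −log10 q of at least 5 (-0.0496), at more than 2 kb from a start site (-0.33), at a reciprocal overlap of 50% (-1.46), with a mutant summit within 150 bp (-0.91), with equal-length lists (-0.20) and against all other peaks over 1 kb from a start site (-0.50). The cause was not tested. Leaving out 1 tissue at a time gave -0.90 (without brain) to 2.60 points for it, and -0.0965 to 0.0528 for the log2 ratio of member number, positive without heart. The difference in breadth became -0.52 points against all other sites over 1 kb from a start site and 3.31 points at 2 kb, where its interval lay above 0, and since the rule favours broad sites nothing rests on it. The mean coding share was 2.0%, and by construction 1.65% at 2 kb and 1.53% with summits at least 25 bp inside the coding interval.

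Leaving out a tissue ranged over -2.03 to -1.25 for the motif share, -0.19 to -0.09 for fold enrichment, -7.77 to -5.81 for occupancy, -4.00 to -1.51 for retention and -0.28 to -0.17 for pileup ratio with the upstream motif. Genotypes were compared within tissues, and with 1 library per group there was no replicate number to use as a block. Precision is limited by 1 library per group and, in mutant heart, by 187 members.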
